A study of Homo sapiens with 12 samples.

Results

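JUNB, KLF4, IER3, IER5, MYC and PIM1 are 6 genes, of 6777 tested, that are known for short-lived transcripts, and their RNA levels were set beside their ribosome footprints. They were picked by symbol from the 12 deposited tables, and all 6 were listed in every library. The choice was made with RNA results of these same libraries in view. The RNA changes of the 6 genes are therefore given as values with no test, and nothing is drawn from how many of them differed. Transcript half-life was not measured.

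The cells were MDA-MB-231, an established human line from a triple-negative breast cancer, grown in DMEM with serum. They received 10 nM AZD0095 or the solvent DMSO for 4 h before harvest. AZD0095 inhibits MCT4, the lactate exporter encoded by SLC16A3. RNA-seq and ribosome profiling, which sequences the mRNA fragments that ribosomes protect from RNase, each had 3 AZD0095 libraries and 3 DMSO libraries.

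Immediate early genes are those whose transcription starts within minutes of a growth factor, cytokine or stress signal, without prior protein synthesis. Their mRNAs usually carry AU-rich elements and decay fast, so that levels follow transcription closely. In breast cancer cells their products include transcription factors of the AP-1 and KLF families, MYC and the kinase PIM1, which act on proliferation, survival and cell identity.

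Values are FPKM, fragment counts scaled by a length for each gene and by mapped reads, as the authors deposited them. Which length was used in either assay is not given in the sources used here. Lengths implied by the footprint values were 1073 bases for JUNB, 1013 for IER5 and 971 for PIM1. The spans of these genes are 1830, 4201 and 5277 bases. Fold changes are on the log2(FPKM + 1) scale, which understates changes of genes with low values. The tables list genes above 1 FPKM in every library. All 7 markers of this mesenchymal line that were looked for were listed, with VIM at 2492 to 2799 FPKM of RNA. Of 9 luminal or epithelial genes 5 were listed, KRT8 at 223 to 253 FPKM, KRT18 at 213 to 233, KRT19 at 125 to 166, ERBB2 at 15.4 to 21.4 and EPCAM at 9.33 to 12.5, while ESR1, PGR, GATA3 and CDH1 were not. The keratin RNAs were thus well above the other epithelial genes. None of PTPRC, PECAM1 and COL1A1, markers of leukocytes, endothelium and fibroblasts, was listed. Pearson correlations of log2 values across genes between libraries of a group were 0.989 to 0.997 in AZD0095 RNA and 0.992 to 0.997 in DMSO RNA. Those of footprints were 0.879 to 0.92 in AZD0095 and 0.854 to 0.871 in DMSO. Depth could be worked out for the footprint libraries only, at 141122, 217366 and 501351 implied reads in AZD0095 replicates 1, 2 and 3, against 123859, 107087 and 192324 in DMSO replicates 1, 2 and 3. Separate cultures are not stated in the labels for the 3 libraries of a group. The p-values therefore reflect variation among libraries that could be technical.

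For 4 of the 6 genes the annotated start was taken from RefSeq's promoter table (GRCh38.p14). That is the same build as the hg38 of the submitters' processing notes. The 250 bases before each start are shown for these 4 genes, and which genes have a window did not depend on their RNA change. RNA of the 4 differed in level between AZD0095 and DMSO, with IER5 in the opposite direction to the other 3. RNA of IER3, which has no window here, differed as well. Each is printed 5′ to 3′ on the strand of its gene, and capitals mark matches to the motifs searched for on both strands. JUNB lies at chr19:12791486-12793315 and its window at chr19:12791236-12791485 on the plus strand. IER5 lies at chr1:181088700-181092900 and its window at chr1:181088450-181088699 on the plus strand. KLF4 lies at chr9:107484852-107489769 and its window at chr9:107489770-107490019 on the minus strand. PIM1 lies at chr6:37170152-37175428 and its window at chr6:37169902-37170151 on the plus strand.
JUNB: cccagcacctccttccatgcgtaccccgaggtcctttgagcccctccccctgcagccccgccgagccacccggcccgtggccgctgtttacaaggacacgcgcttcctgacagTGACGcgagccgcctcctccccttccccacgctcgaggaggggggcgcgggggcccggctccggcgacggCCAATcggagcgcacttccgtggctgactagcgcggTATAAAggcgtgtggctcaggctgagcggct
IER5: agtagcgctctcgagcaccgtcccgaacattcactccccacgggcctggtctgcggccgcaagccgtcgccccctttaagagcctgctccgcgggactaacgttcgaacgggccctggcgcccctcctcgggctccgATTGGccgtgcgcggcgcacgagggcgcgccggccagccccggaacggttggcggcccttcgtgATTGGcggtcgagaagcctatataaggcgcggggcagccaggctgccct
KLF4: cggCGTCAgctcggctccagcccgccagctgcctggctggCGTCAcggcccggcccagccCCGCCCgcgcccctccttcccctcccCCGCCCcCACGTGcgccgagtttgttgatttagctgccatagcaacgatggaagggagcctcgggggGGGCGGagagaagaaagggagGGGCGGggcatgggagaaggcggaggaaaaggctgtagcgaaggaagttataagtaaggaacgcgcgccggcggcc
PIM1: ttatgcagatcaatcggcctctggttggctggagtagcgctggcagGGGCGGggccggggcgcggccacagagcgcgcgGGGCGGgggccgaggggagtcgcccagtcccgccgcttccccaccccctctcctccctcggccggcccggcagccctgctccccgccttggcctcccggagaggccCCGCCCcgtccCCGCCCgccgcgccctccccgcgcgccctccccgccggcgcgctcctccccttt

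The motifs were the TATA box (TATAAA), the CCAAT box (CCAAT), the GC box (GGGCGG), the E-box that MYC and MAX bind (CACGTG), the CRE core (TGACG), the AP-1 site (TGANTCA), the STAT site (TTCNNNGAA), the ATF4 composite site (TGATGNAAT), the serum response element or CArG box, and the kappaB site. In the JUNB window a TATA box stood at −31 to −26 from the start, a CCAAT box at −67 to −63 and a CRE core at −137 to −133. The IER5 window held CCAAT boxes on the opposite strand, printed as ATTGG, at −113 to −109 and at −49 to −45. Close variants of a motif, such as the tatataa near the end of the IER5 window, were not searched for. The KLF4 window held 4 GC boxes, 1 E-box at −157 to −152, and CRE cores on the opposite strand at −247 to −243 and at −210 to −206. The PIM1 window held 4 GC boxes and no other motif of the list, and its GC content was 79.6%, against a median of 64.8% for windows of tested genes. None of the marked matches overlapped another.

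Of 35116 promoter windows in the table, 10.7% held a TATA box, 32.0% a CCAAT box, 42.6% a GC box, 6.34% an E-box and 21.2% a CRE core. Of the 8293 windows of tested genes, 5.58% held a TATA box, 33.6% a CCAAT box, 66.1% a GC box, 9.04% an E-box and 29.8% a CRE core. Over all windows, the shares for the motifs with no match in these 4 windows were 6.57% for the AP-1 site, 6.57% for the STAT site, 0.888% for the ATF4 composite site, 1.16% for the CArG box and 5.21% for the kappaB site. Over windows of tested genes they were 4.24% for the AP-1 site, 5.27% for the STAT site, 0.458% for the ATF4 composite site, 1.05% for the CArG box and 5.91% for the kappaB site. A match describes the letters and is not a measured binding site.

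RNA of JUNB, KLF4, IER3 and PIM1 was higher in AZD0095 than in DMSO libraries, RNA of IER5 was lower, and RNA of MYC was at about the same level in both. The groups did not overlap for 4 genes in the higher direction and for 1 gene in the lower direction. Over all genes tested, 17.7% did not overlap in the higher direction, 11.5% in the lower and 29.2% in either, and since RNA results chose the 6 genes, their count is not read against these shares. In bulk libraries a change in the share of cells that express a gene and a change per cell cannot be told apart.

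JUNB (ENSG00000171223) encodes an AP-1 subunit that pairs with FOS family proteins. Its RNA was at 22.9, 23.6 and 23.0 FPKM in AZD0095 replicates 1, 2 and 3, against 15.95, 15.97 and 16.97 FPKM in DMSO replicates 1, 2 and 3. Every AZD0095 library stood above every DMSO library, with little spread inside either group. The means were 23.2 ± 0.421 FPKM in AZD0095 and 16.3 ± 0.585 FPKM in DMSO (SD, n = 3 each), a log2 fold change of 0.48 ± 0.07 (SE). It ranked 101 from the highest change of all genes. In RefSeq JUNB overlaps HOOK2, and no strand setting for counting is given in the sources used here. Whether reads of the 2 genes were told apart is therefore unknown.

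KLF4 (ENSG00000136826) encodes a zinc finger transcription factor of the Krüppel-like family, one of the factors used to reprogram cells to pluripotency. RNA of KLF4 was at 16.9, 16.98 and 16.7 FPKM in AZD0095 replicates 1, 2 and 3, against 11.8, 12.5 and 12.5 FPKM in DMSO. The AZD0095 libraries were again all above the DMSO libraries. The means were 16.9 ± 0.132 FPKM in AZD0095 and 12.3 ± 0.440 FPKM in DMSO (SD, n = 3 each), with a log2 fold change of 0.43 ± 0.07 (SE) that ranked 154 from the highest.

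IER3 (ENSG00000137331, chr6:30743199-30744547), also called IEX-1, encodes a small membrane glycoprotein that modulates apoptosis and is a target of NF-kappaB. Its RNA was the most abundant of the 6, at 447, 445 and 474 FPKM in AZD0095, against 320, 323 and 321 FPKM in DMSO. The groups stood well apart and the 3 DMSO libraries were almost equal. The means were 456 ± 16.2 FPKM in AZD0095 and 321 ± 1.81 FPKM in DMSO (SD, n = 3 each), a log2 fold change of 0.50 ± 0.04 (SE), rank 88 from the highest. IER3 overlaps the long non-coding RNA gene IER3-AS1, whose reads cannot be told apart from its own without strand.

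IER5 (ENSG00000162783) encodes a nuclear protein that binds the phosphatase PP2A and promotes dephosphorylation of the heat shock factor HSF1. Its RNA was at 18.1, 18.0 and 18.4 FPKM in AZD0095, against 22.6, 25.3 and 25.5 FPKM in DMSO. Here every AZD0095 library lay below every DMSO library, the opposite order to JUNB, KLF4, IER3 and PIM1. The means were 18.1 ± 0.200 FPKM in AZD0095 and 24.5 ± 1.61 FPKM in DMSO (SD, n = 3 each), a log2 fold change of −0.41 ± 0.07 (SE), rank 152 from the lowest change.

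MYC (ENSG00000136997) encodes the basic helix-loop-helix transcription factor that, with MAX, drives genes of growth and ribosome production. Its RNA was at 106, 102 and 102 FPKM in AZD0095, against 100.1, 105 and 98.1 FPKM in DMSO. The ranges overlapped. The means were 103 ± 2.11 FPKM in AZD0095 and 101 ± 3.40 FPKM in DMSO (SD, n = 3 each), a log2 fold change of 0.03 ± 0.05 (SE). It was −0.02 with library weights, whose estimation did not converge.

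PIM1 (ENSG00000137193) encodes a serine/threonine kinase that is active as soon as it is translated and that cytokines induce through JAK and STAT. PIM1 RNA was at 14.1, 13.5 and 13.8 FPKM in AZD0095, against 6.46, 6.68 and 5.34 FPKM in DMSO. No AZD0095 library came near a DMSO library. The means were 13.8 ± 0.286 FPKM in AZD0095 and 6.16 ± 0.718 FPKM in DMSO (SD, n = 3 each), 2.24 times as high in AZD0095 and the widest difference of the 6 genes. Its log2 fold change of 1.05 ± 0.09 (SE) ranked 8 from the highest.

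**Figure D1:**
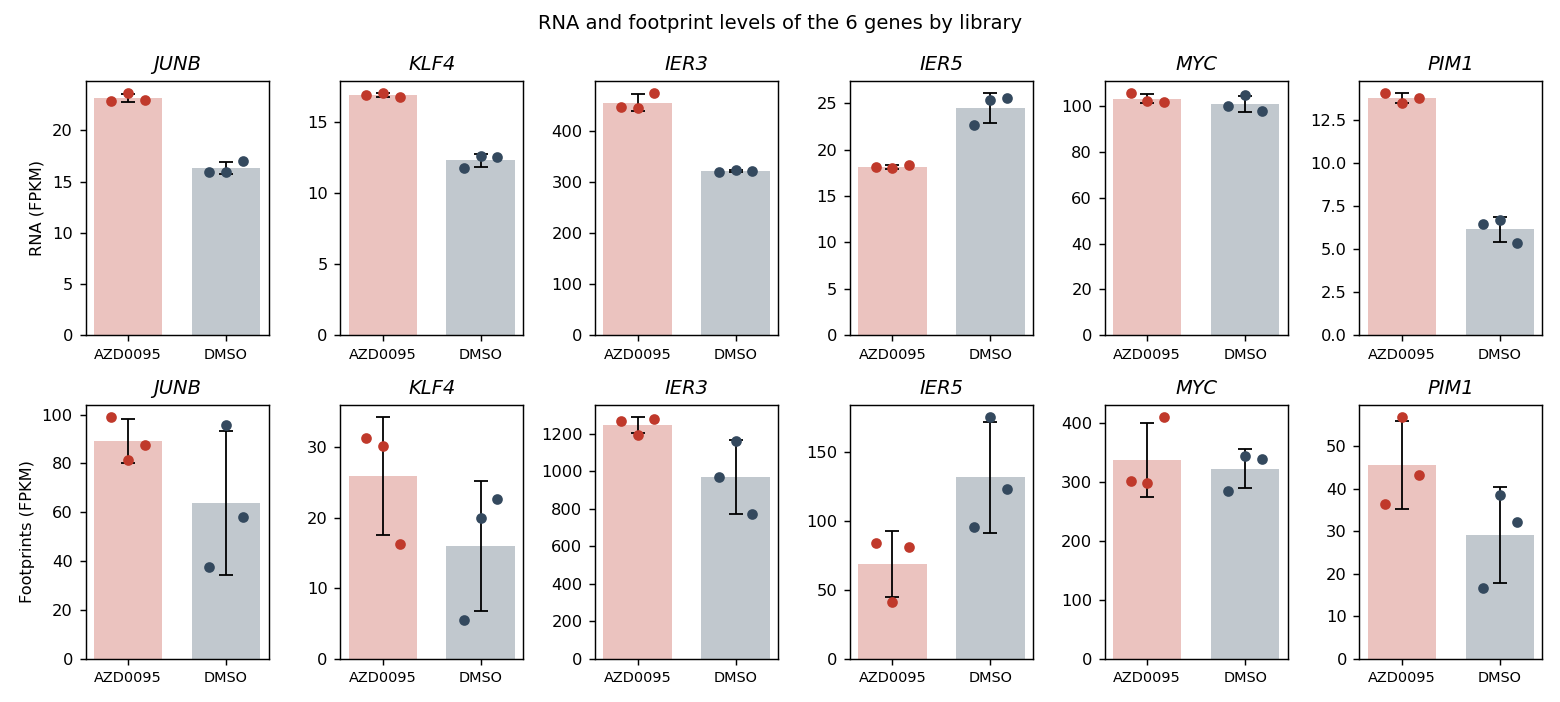
RNA (top) and footprints (bottom) of the 6 genes in FPKM, with a point for each library, bars for the mean and error bars for the SD (n = 3), AZD0095 left of DMSO in each panel. In RNA the 2 groups are apart for every gene except MYC, while in footprints they are apart for IER3 and IER5.

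In AZD0095 the RNA levels ran, from high to low, IER3, MYC, JUNB, IER5, KLF4 and PIM1. In DMSO the order was the same except that IER5 stood above JUNB. No neighbours in either order overlapped over the 3 libraries. Among all genes IER3 was at percentile 98.02 of RNA in AZD0095 and percentile 97.2 in DMSO, whereas PIM1 was at percentile 30.0 in AZD0095 and 8.99 in DMSO.

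Leaving out each RNA library in turn kept the log2 fold changes at 0.47 to 0.51 for JUNB, 0.40 to 0.44 for KLF4, 0.47 to 0.52 for IER3, −0.46 to −0.38 for IER5, 0.97 to 1.104 for PIM1 and 0.01 to 0.06 for MYC. The coefficient of variation between RNA libraries was 0.563% to 11.7% for the 6 genes, against medians over all genes of 7.16% in AZD0095 and 6.52% in DMSO. PIM1 in DMSO gave the 11.7%.

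The genes whose RNA pattern was most like each of the 6 were found by a root mean square difference. It was taken between deviations of log2(FPKM + 1) from each gene's mean over the 6 RNA libraries. Since both treatments are among these libraries, genes with a like RNA change come out near. For JUNB, at a log2 fold change of 0.48, the nearest were at 0.45, 0.46 and 0.53. The same RNA values chose the 6 genes, and shared regulation was not tested. The nearest to PIM1 were ERRFI1 at 0.0766, SLC38A2 at 0.126 and DUSP5 at 0.128. AARS1, EPAS1 and FHL3 were nearest to JUNB at 0.0314 to 0.0373. KLF4 was nearest to GYS1, TRIP10 and WBP2 at 0.0165 to 0.0303, and IER3 to DSP at 0.0275 and DBN1 at 0.0327. For IER5 the nearest were GRWD1, THBD and SLC30A1 at 0.0272 to 0.0408, and for MYC they were HDLBP, RANBP1 and COMMD3 at 0.0141 to 0.0187.

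No footprint change of the 6 genes passed the test. By limma, 0 of 6777 genes (0.0%) had a footprint change at an adjusted p under 0.05, and 530 (7.82%) at an unadjusted p under 0.05. Of the 6, IER5 alone had an unadjusted p under 0.05. Footprint values were positive for JUNB, KLF4, IER3, PIM1 and MYC and negative for IER5. For MYC the value was close to 0, as in RNA, and its sign turned without DMSO replicate 1 or AZD0095 replicate 3. The RNA values had the same signs, and nothing is drawn from that, since the share over all genes is not given. The median standard error of a log2 fold change over all genes was 0.51 in footprints and 0.08 in RNA.

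JUNB footprints were at 99.1, 81.5 and 87.4 FPKM in AZD0095 replicates 1, 2 and 3, against 37.6, 95.7 and 58.2 FPKM in DMSO. DMSO replicate 2 lay among the AZD0095 libraries, so the groups overlapped. The log2 fold change was 0.57 ± 0.43 (SE), with a 95% interval of −0.37 to 1.51 and a limma adjusted p = 0.791. It was 0.25 without DMSO replicate 1 and 0.91 without DMSO replicate 2.

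KLF4 footprints were at 31.4, 30.2 and 16.3 FPKM in AZD0095, against 5.50, 20.0 and 22.7 FPKM in DMSO. AZD0095 replicate 3 lay below 2 of the DMSO libraries, and DMSO replicate 1 was far below the rest. The log2 fold change was 0.81 ± 0.64 (SE), with a 95% interval of −0.57 to 2.198 and a limma adjusted p = 0.798, and it was 0.22 without DMSO replicate 1.

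IER3 footprints were at 1266, 1196 and 1278 FPKM in AZD0095, against 972, 1164 and 771 FPKM in DMSO. Every AZD0095 library was above every DMSO library, an order that 7.19% of all genes showed in footprints. The means were 1247 ± 44.2 FPKM in AZD0095 and 969 ± 196 FPKM in DMSO (SD, n = 3 each). The log2 fold change of 0.38 ± 0.20 (SE), with a 95% interval of −0.04 to 0.81, did not pass (limma unadjusted p = 0.0740, adjusted p = 0.677), and it was 0.23 without DMSO replicate 3.

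IER5 footprints were at 83.9, 40.9 and 80.7 FPKM in AZD0095, against 95.6, 175 and 123 FPKM in DMSO. Every AZD0095 library was below every DMSO library, as for 5.77% of all genes. The means were 68.5 ± 23.99 FPKM in AZD0095 and 131 ± 40.4 FPKM in DMSO (SD, n = 3 each). The log2 fold change was −0.95 ± 0.42 (SE), with a 95% interval of −1.86 to −0.05. By limma the unadjusted p was 0.0404 and the adjusted p was 0.631, and the adjusted p was 0.569 to 0.934 over the alternatives. Without AZD0095 replicate 2 the log2 fold change was −0.62.

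MYC footprints were at 303, 300 and 411 FPKM in AZD0095, against 286, 345 and 339 FPKM in DMSO. The groups overlapped. The log2 fold change was 0.05 ± 0.25 (SE), with a 95% interval of −0.49 to 0.59 and a limma adjusted p = 0.976, and it was −0.03 without DMSO replicate 1 and −0.10 without AZD0095 replicate 3.

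PIM1 footprints were at 36.5, 56.9 and 43.1 FPKM in AZD0095, against 16.6, 38.5 and 32.1 FPKM in DMSO. DMSO replicate 2 lay just above AZD0095 replicate 1 and the other DMSO libraries were below all AZD0095 libraries. The log2 fold change was 0.68 ± 0.52 (SE), with a 95% interval of −0.44 to 1.81 and a limma adjusted p = 0.792, and it was 0.34 without DMSO replicate 1. The interval holds both 0 and the RNA value of 1.05.

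**Figure D2:**
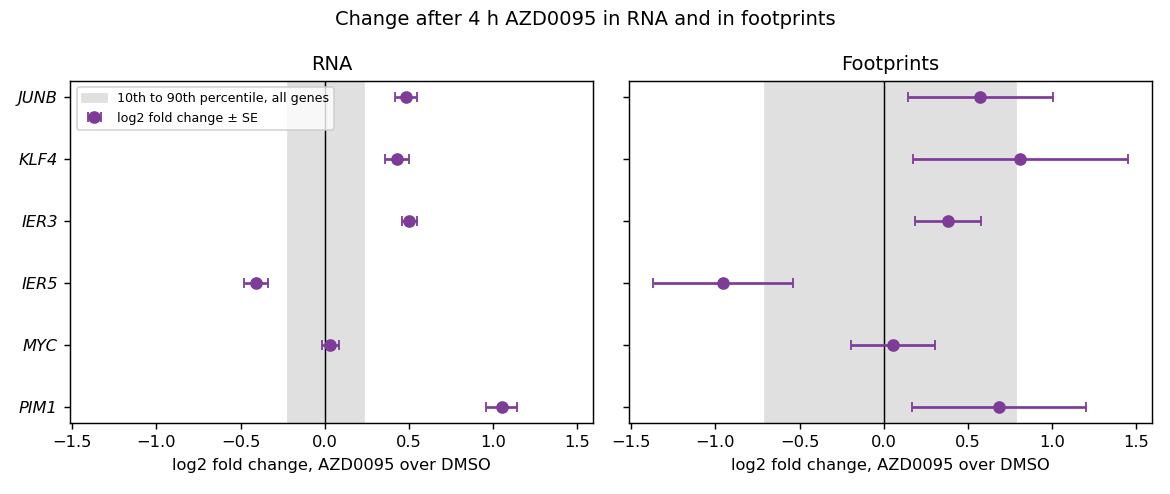
Log2 fold changes of AZD0095 over DMSO in RNA (left) and footprints (right) for the 6 genes, with bars for the SE (n = 3 libraries per group) and grey bands from the 10th to the 90th percentile of all genes. In RNA the bars are 0.04 to 0.09 long on each side and the band runs from −0.22 to 0.24, while in footprints the bars reach 0.20 to 0.64 and the band runs from −0.71 to 0.79.

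The implied reads show how thin the footprint values were. Values came to whole reads in all 6 libraries, to within 0.1, for 1204 genes (17.8%), including JUNB, IER5 and PIM1 but not IER3, KLF4 or MYC. JUNB had 15, 19 and 47 implied reads in AZD0095 replicates 1, 2 and 3, against 5, 11 and 12 in DMSO. IER5 had 12, 9 and 41 in AZD0095, against 12, 19 and 24 in DMSO, and PIM1 had 5, 12 and 21 in AZD0095, against 2, 4 and 6 in DMSO.

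Summed over libraries, JUNB had 81 of 859839 reads in AZD0095 and 28 of 423270 in DMSO, or 9.42 per 100000 in AZD0095 and 6.62 in DMSO. The ratio was 1.42, with an exact 95% interval of 0.916 to 2.27. IER5 had 7.21 per 100000 in AZD0095 and 13.0 in DMSO, a ratio of 0.555 (0.380 to 0.813), and PIM1 had 4.42 in AZD0095 and 2.84 in DMSO, a ratio of 1.56 (0.797 to 3.28). These intervals cover counting error in these libraries only, not the spread between libraries, and the AZD0095 sum leans on replicate 3, its deepest library.

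**Figure D3:**
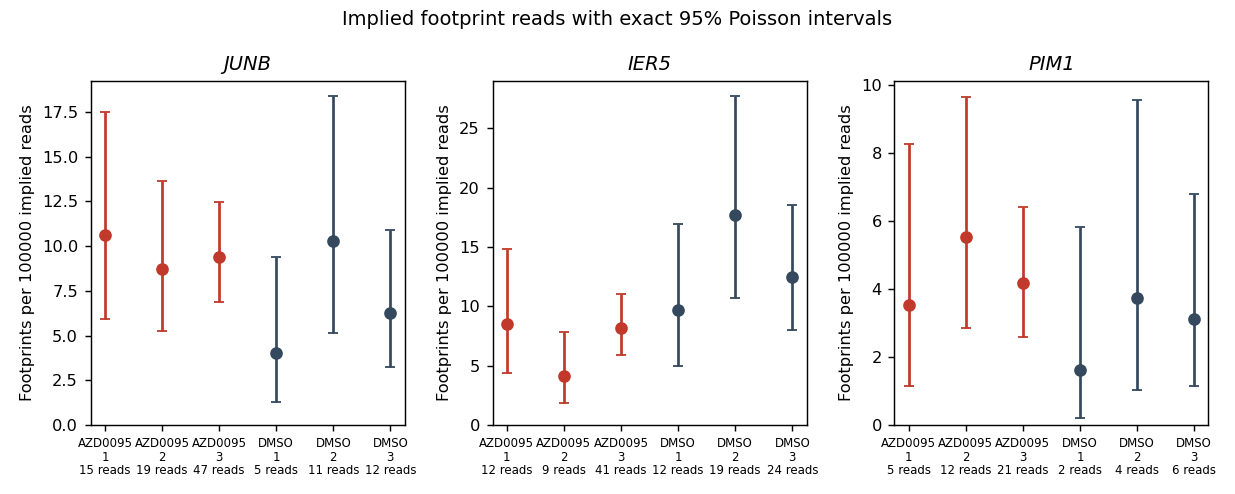
Footprints of JUNB, IER5 and PIM1 per 100000 implied reads in each library, AZD0095 left of DMSO, with exact 95% Poisson intervals and the number of implied reads under each point. The intervals of single libraries overlap widely for JUNB and PIM1, which had as few as 5 and 2 reads in DMSO replicate 1.

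In footprints IER3 and MYC stood above the other 4 genes in both treatments with no overlap. In AZD0095 the order went on with JUNB, IER5, PIM1 and KLF4, where JUNB overlapped IER5 and IER5 overlapped PIM1. In DMSO it went on with IER5, JUNB, PIM1 and KLF4, where each overlapped the next.

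Translational efficiency, the log2 ratio of mean footprint FPKM to mean RNA FPKM, was above the median of all genes for 5 of the 6 genes in AZD0095 and for 5 in DMSO. The exception was KLF4. The median of all genes was 1.29 in AZD0095 and 1.28 in DMSO. KLF4 was at 0.62 in AZD0095, percentile 25.3, and at 0.39 in DMSO, percentile 21.2. IER5 was at 1.92 in AZD0095, percentile 73.2, and at 2.42 in DMSO, percentile 84.6.

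JUNB was at 1.95 in AZD0095 and 1.97 in DMSO, at percentile 74.1 in AZD0095 and 73.2 in DMSO. PIM1 was at 1.72 in AZD0095, percentile 67.8, and at 2.24 in DMSO, percentile 80.2. MYC was at 1.71 in AZD0095 and 1.68 in DMSO, and IER3 at 1.45 in AZD0095 and 1.59 in DMSO. These are ratios of levels scaled within each assay, so their order among genes can be read but not their absolute size.

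**Figure D4:**
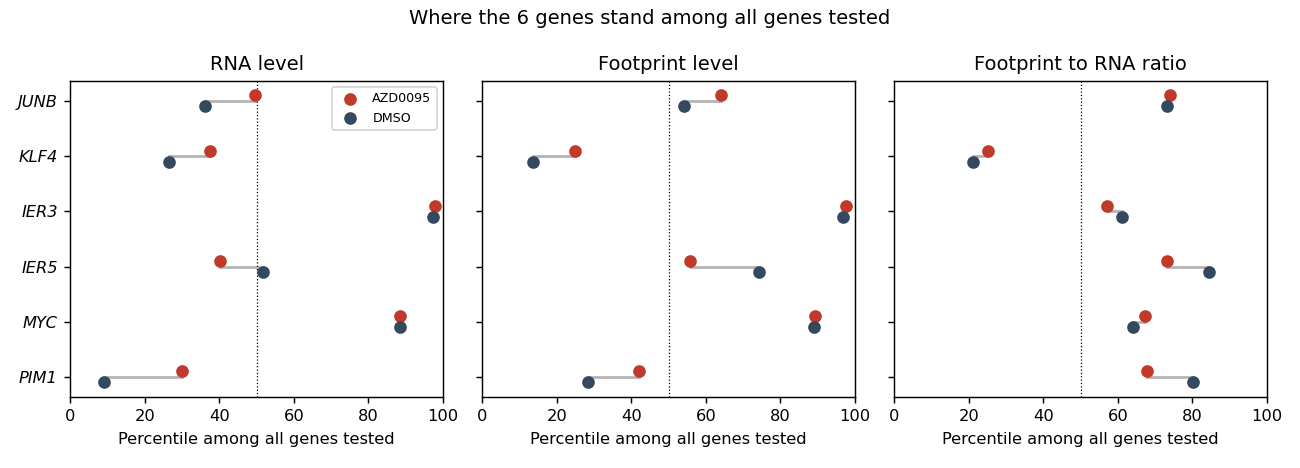
Percentile of each of the 6 genes among the 6777 genes tested for RNA level, footprint level and footprint to RNA ratio, AZD0095 above DMSO in each pair of points and a dotted line at the median gene. IER3 and MYC lie near the right edge for both levels, and KLF4 is the one gene left of the median for the ratio.

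The change of translational efficiency was taken from the interaction of assay and treatment over all 12 libraries, and it contains the RNA contrast that chose the genes, so it is given with no test. By limma 0 of all genes (0.0%) changed in translational efficiency at an adjusted p under 0.05, and 578 (8.53%) at an unadjusted p under 0.05. The value was 0.09 ± 0.42 (SE) for JUNB, 0.38 ± 0.63 for KLF4, −0.12 ± 0.19 for IER3, −0.54 ± 0.42 for IER5, 0.02 ± 0.21 for MYC and −0.37 ± 0.47 for PIM1, on the log2 scale. Leaving out each library in turn gave −0.75 to −0.21 for IER5 and −0.71 to −0.13 for PIM1, while JUNB (−0.23 to 0.43), KLF4 (−0.21 to 0.72), IER3 (−0.27 to 0.02) and MYC (−0.13 to 0.10) took both signs.

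Related genes were taken from 8 lists of 184 genes in all, of which 118 were tested. The lists were chosen with earlier results of these data known, so their counts are given as values only. By limma, 545 of all genes (8.04%) changed in RNA, 341 higher (5.03%) and 204 lower (3.01%), and the median log2 fold change of all genes was 0.01 in RNA and 0.04 in footprints. The count of 545 ran from 100 without DMSO replicate 2 and 116 without AZD0095 replicate 2 to 1112 without AZD0095 replicate 1. In footprints 0 genes of every list passed, so values of footprints are given without a call.

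Of 17 other AP-1 factors 4 were tested, and JUND alone changed, with a median over the 4 of 0.01 in RNA and −0.05 in footprints. JUND, the JUN family member that many cells express without a stimulus, rose by 0.37 on the log2 scale to 31.6 ± 0.209 FPKM in AZD0095, against 24.2 ± 1.91 FPKM in DMSO (limma adjusted p = 0.0202). Its call was lost without DMSO replicate 2 (adjusted p = 0.074), AZD0095 replicate 2 (0.09) or AZD0095 replicate 3 (0.068). Of 14 other KLF factors 4 were tested, with a median of 0.06 in RNA and 0.50 in footprints. KLF10, a factor induced early by TGF-beta, rose by 0.35 to 25.5 ± 1.05 FPKM in AZD0095, against 19.8 ± 0.753 FPKM in DMSO (adjusted p = 0.0197), a call lost without any of 4 libraries (0.068 to 0.11), DMSO replicates 2 and 3 and AZD0095 replicates 2 and 3.

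Among 23 other immediate early transcription factors 9 were tested and 1 changed, with a median of 0.01 in RNA and 0.33 in footprints. ID3, an inhibitor of basic helix-loop-helix factors, fell by 0.49 on the log2 scale (log2 fold change −0.49) to 16.6 ± 1.07 FPKM in AZD0095, against 23.8 ± 1.85 FPKM in DMSO (limma adjusted p = 0.0115), and lost its call without DMSO replicate 2 (0.061) or AZD0095 replicate 2 (0.064).

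Immediate early effectors and feedback inhibitors had 20 of 30 genes tested, where 6 rose, 3 fell and the other 11 missed the threshold. The median was 0.04 in RNA and 0.22 in footprints. ERRFI1, an inhibitor of the EGF receptor, rose by 1.13 on the log2 scale to 497 ± 19.3 FPKM in AZD0095, against 226 ± 11.7 FPKM in DMSO (limma adjusted p = 6.02e-05). DUSP5, a nuclear phosphatase of ERK, rose by 0.85 to 63.8 ± 2.203 FPKM in AZD0095, against 35.0 ± 0.981 FPKM in DMSO (adjusted p = 0.000162). Both kept their calls without any one library, as did SGK1, a kinase of ion transport and survival (−0.44), and CCN1, a secreted matrix protein (0.37). With a library left out, the highest limma adjusted p was 0.0020 for ERRFI1 and 0.0034 for DUSP5. For SGK1 and CCN1 it was just under the threshold, at 0.048 and 0.047. Footprints of ERRFI1 averaged 428 ± 168 FPKM in AZD0095 and 208 ± 46.1 FPKM in DMSO, and those of DUSP5 51.1 ± 6.22 FPKM in AZD0095 and 27.5 ± 11.9 FPKM in DMSO (SD, n = 3 each). SGK1 footprints averaged 39.7 ± 3.98 FPKM in AZD0095 and 34.1 ± 6.3 FPKM in DMSO, the opposite order to its RNA. CCN1 footprints averaged 3414 ± 461 FPKM in AZD0095 and 2412 ± 248 FPKM in DMSO.

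PLK2, a polo-like kinase, fell (−0.40) and BTG1, an antiproliferative factor that recruits mRNA deadenylases, rose (0.40) in RNA. PLK2 lost its call without DMSO replicate 1 (limma adjusted p = 0.052), DMSO replicate 2 (0.074), AZD0095 replicate 2 (0.079) and AZD0095 replicate 3 (0.05), and that of BTG1 without DMSO replicate 2 (0.07) or AZD0095 replicate 2 (0.064).

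For the partners and regulators of MYC, 15 of 24 genes were tested, with a median of 0.06 in RNA and −0.03 in footprints. MAX, the dimer partner of MYC, rose by 0.30 on the log2 scale to 45.1 ± 2.61 FPKM in AZD0095, against 36.5 ± 1.496 FPKM in DMSO (limma adjusted p = 0.0303). AURKA, a mitotic kinase that stabilises MYC family proteins, changed by −0.42 to 119 ± 5.72 FPKM in AZD0095, against 161 ± 16.7 FPKM in DMSO (adjusted p = 0.0162). The call of MAX was lost without any DMSO library or without AZD0095 replicate 2 (0.058 to 0.14), and that of AURKA without DMSO replicate 2 or AZD0095 replicate 2 or 3 (0.062 to 0.077).

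Of the MYC targets, genes of nucleolar ribosome assembly, nucleotide synthesis and the cell cycle, all 30 were tested. In RNA 5 fell, 0 rose and 25 did not pass. The median log2 fold change was −0.13, with 23 values negative and 7 positive, while 52.3% of all genes had a positive value in RNA. Since earlier results were known when the list was chosen, nothing is drawn from its signs beside that share. The 5 that fell were RRS1 (−0.51), WDR43 (−0.46), PPAN (−0.35) and NOP56 (−0.20), which serve ribosome assembly, and CDC25A (−0.37), a phosphatase that starts S phase. RRS1 averaged 19.1 ± 1.23 FPKM in AZD0095 and 27.5 ± 1.72 FPKM in DMSO (SD, n = 3 each), with a limma adjusted p = 0.00866 that was 0.059 without DMSO replicate 2 and 0.053 without AZD0095 replicate 2. By limma the adjusted p was 0.0445 for WDR43, 0.0460 for NOP56, 0.0179 for CDC25A and 0.0222 for PPAN. Leaving out any of 5 libraries lost the call of WDR43, NOP56 or CDC25A, and any of 4 that of PPAN. In footprints 0 of the 30 passed and the median was 0.04. Footprint values were negative for RRS1 (−1.01), PPAN (−0.52) and NOP56 (−0.34) and positive for WDR43 (0.06) and CDC25A (0.45). The count of 5 was 0 to 12 when each library was left out, with 0 without DMSO replicate 2 and 0 without AZD0095 replicate 2, and 12 without AZD0095 replicate 1.

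PIM kinases, JAK-STAT signalling upstream of PIM1 and PIM substrates had 14 of 19 genes tested, of which 3 rose and 0 fell, with a median of 0.08 in RNA and 0.15 in footprints. They were SOCS2 (0.39), a feedback inhibitor that STAT5 induces, STAT5B itself (0.36) and CDKN1A (0.30), the cell cycle inhibitor p21, a PIM1 substrate. CDKN1A averaged 55.6 ± 1.44 FPKM in AZD0095 and 45.0 ± 2.13 FPKM in DMSO (limma adjusted p = 0.0202). None of the 3 calls held without DMSO replicate 2 (adjusted p = 0.11 to 0.15) or without AZD0095 replicate 2 (0.075 to 0.14), or without AZD0095 replicate 3 (0.079 to 0.11). SOCS2 (0.11) and STAT5B (0.063) also lost theirs without DMSO replicate 3, and STAT5B (0.064) and CDKN1A (0.061) without DMSO replicate 1.

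Factors of mRNA decay had 22 of 27 genes tested, with a median of −0.03 in RNA and 0.20 in footprints. ZFP36L2, which binds AU-rich elements and triggers decay, fell (log2 fold change −0.57) to 10.4 ± 0.261 FPKM in AZD0095, against 15.9 ± 0.151 FPKM in DMSO (limma adjusted p = 0.00369), and kept its call without any one library. CNOT8, a deadenylase of the CCR4-NOT complex, rose by 0.35 to 39.1 ± 1.95 FPKM in AZD0095, against 30.5 ± 2.36 FPKM in DMSO (adjusted p = 0.0275), a call lost when replicate 2 or 3 of DMSO or of AZD0095 was left out (0.056 to 0.13).

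**Figure D5:**
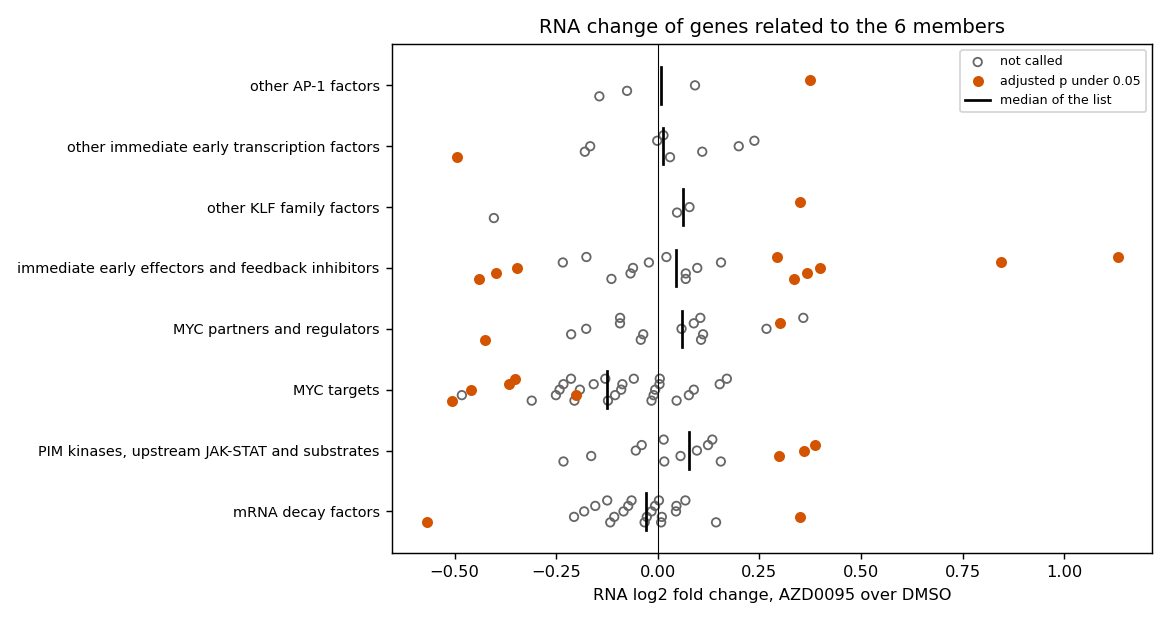
RNA log2 fold change of AZD0095 over DMSO for each tested gene of the 8 lists, filled points at a limma adjusted p under 0.05, open points for genes that did not pass and a bar for the median of each list. ERRFI1 and DUSP5 lie farthest right, at 1.13 and 0.85, and most of the 30 MYC targets lie left of 0.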

How the data were processed

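RNA-seq and ribosome profiling gave FPKM values, which the authors deposited in a table for each of 12 libraries (3 per group). The build hg38 and the tools STAR, Bowtie2 and fastp are named in the submitters' processing notes. The roles of the tools, the counter, the annotation and the strand setting are not given here or in any other source used. Per the labels' protocols, footprints came from cycloheximide-treated lysates digested with RNase I and freed of rRNA. Titles call the RNA total, and the molecule label calls it polyadenylated. The tables held 6785 genes, the lowest value being 1.002, and 8 repeated entries were removed. Groups and replicate numbers came from the labels.

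Values were taken as log2(FPKM + 1), and genes with a mean of at least 1 FPKM were kept. RNA and footprints were each compared with a two-sided limma model (limma 3.58.1, R 4.3.3) with a variance trend and Benjamini-Hochberg adjustment over 6777 genes; calls are at an adjusted p under 0.05. Translational efficiency was the interaction of assay and treatment. Implied reads were the whole multiples that FPKM steps gave, taken as whole within 0.1; reads with a common factor can come out too low. RNA values showed no such steps (at most 6 genes shared a ratio between libraries, against 125 for footprints), so RNA depth is unknown. Intervals on reads are exact at 95% and cover counting error only. The steps were tested on simulated data.

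The 6 genes and the 8 lists were chosen with earlier results of these data known. Of each list the genes called in RNA were named, at most the 6 with the largest change; for each of the 6 genes the 3 nearest in RNA pattern were named, except 1 gene that is not reported here. Alternatives were other pseudocounts, filters, scalings, no trend, library weights, a replicate block and leaving out each library; those for the level of translational efficiency were chosen after seeing the data.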

Additional observations from a re-analysis of the deposited data

How the results depend on the processing

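Whether replicate numbers pair the samples was not settled. In RNA, deviations of same-numbered AZD0095 and DMSO libraries correlated at 0.622, 0.086 and 0.489 for replicates 1, 2 and 3. For AZD0095 replicates 1 and 3 the same-numbered DMSO library gave the highest correlation. AZD0095 RNA replicate 2 correlated best with DMSO replicate 3, at 0.303. In footprints the same-numbered correlations were 0.009, −0.022 and 0.091. The main fits did not use pairing. With a replicate block the RNA count was 1622 in place of 545, and the counts were 2 other immediate early transcription factors, 2 other KLF factors, 15 MYC targets, 5 genes of the PIM list and 5 mRNA decay factors. With library weights, whose estimation did not converge, it was 3086, with 2 AP-1 factors, 5 other immediate early transcription factors, 2 KLF factors, 7 MYC partners, 20 MYC targets, 7 genes of the PIM list and 7 decay factors. Without the trend the MYC targets called were 3, and 1 gene, PRR14 (−2.28), was called in translational efficiency in place of 0. The cause was not tested.

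Leaving out each library gave 100 to 1112 genes called in RNA, 0 in footprints and 0 to 4 in translational efficiency. The calls in translational efficiency were MBTPS1, RPRD1A, HDGFL2 and SUMO2 without footprint DMSO replicate 1, and RPL13A, NFKBIZ and ARMCX2 without footprint DMSO replicate 2; all are named after their values were seen. The lists gave 0 to 1 AP-1 factors, 0 to 1 other immediate early transcription factors, 0 to 1 KLF factors, 4 to 9 effectors and feedback inhibitors, 0 to 3 MYC partners, 0 to 12 MYC targets, 0 to 4 genes of the PIM list and 1 to 2 decay factors. The footprint change of MYC took the values −0.10 to 0.13, with −0.03 without DMSO replicate 1 and −0.10 without AZD0095 replicate 3.

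For the 6 genes, 159 of the other alternative values kept their sign and side of the threshold or moved within the spread between libraries. The 3 that moved more were JUNB RNA (0.52 with library weights), PIM1 RNA (1.17 with a pseudocount of 0.01) and MYC RNA (−0.02 with library weights). In RNA and translational efficiency only the log2 fold change was compared. The filters, the replicate block and the fit without trend cannot alter it, so these settings say nothing about its stability. As to depth, medians of implied reads were taken over the 1204 genes with whole reads only, which leave out IER3, KLF4 and MYC. They were 8, 12 and 29 in AZD0095 replicates 1, 2 and 3, against 7, 5 and 11 in DMSO.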
